A study of Mus musculus with 2 samples.

Results

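The 10 myosin light chain genes described here are Mylpf, Myl1, Myl2, Myl3, Myl4, Myl6, Myl6b, Myl9, Myl12a and Myl12b, taken by name from the 55536 annotated genes measured. They were measured by total RNA sequencing of gastrocnemius, the main muscle of the calf. The animals were male B6CASTF1/J mice, hybrids of C57BL/6J and CAST/EiJ, aged 18 to 20 months in one label and of unknown age in another. The series holds 1 group with 2 libraries, called biological replicate 2 and biological replicate 1, each made with 300 ng of input and with the synthetic ERCC control RNAs added. There was no treatment and no mutation, so every ratio below sets replicate 2 over replicate 1. Both libraries carry the same donor record, and the labels do not say whether they came from separate animals.

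The depth was 44919441 expected counts in replicate 2 and 40795740 in replicate 1. The labelled tissue was checked by fast fibre markers, and all 9 were detected and together reached 64563 TPM in replicate 2 and 81929 TPM in replicate 1. TPM is the count of a transcript divided by its length and scaled to a fixed total per library. A level in TPM therefore depends on the share of this total that other genes take. Rn7s1 and Rn7s2 together held 22.65% of it in replicate 2 and 28.72% in replicate 1. The slow fibre markers stood apart between the libraries: their 8 genes summed to 1767 TPM in replicate 2 and 169.1 TPM in replicate 1, and each gene was 6.92-fold to 28.3-fold higher in replicate 2. In bulk RNA, fewer fibres of a type and less RNA per fibre cannot be told apart.

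Myosin II is a motor of paired heavy chains, and each heavy chain carries on its neck 1 essential and 1 regulatory light chain. The light chains stiffen the lever arm, and phosphorylation of a serine near the start of the regulatory chain tunes force in striated muscle and switches the motor on in smooth muscle and non-muscle cells. Fast fibres, slow fibres, the heart, smooth muscle and other cells draw on different genes for each kind, so the mixture of light chain RNA follows fibre and cell type.

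The 5 regulatory chains share the serine codon that light chain kinases act on, which is the feature that joins the sarcomeric and the non-muscle genes of this kind. The lines that follow give the coding bases from the start codon onward in the GENCODE M21 transcripts, with that serine codon in capitals. It was found as the serine codon that stands before the codons for Asn, Val and Phe, and it was codon 16 in Mylpf, 15 in Myl2 and 20 in Myl9, Myl12a and Myl12b, with the start codon as 1. The genes lie on chromosome 7 (Mylpf), 5 (Myl2), 2 (Myl9) and 17 (Myl12a and Myl12b).
Mylpf: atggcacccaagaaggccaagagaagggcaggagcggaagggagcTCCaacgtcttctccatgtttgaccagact
Myl2: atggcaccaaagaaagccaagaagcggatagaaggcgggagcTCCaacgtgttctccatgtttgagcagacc
Myl9: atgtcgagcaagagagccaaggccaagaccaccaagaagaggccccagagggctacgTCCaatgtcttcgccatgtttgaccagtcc
Myl12a: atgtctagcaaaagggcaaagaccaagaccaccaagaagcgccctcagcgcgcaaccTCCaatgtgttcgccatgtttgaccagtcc
Myl12b: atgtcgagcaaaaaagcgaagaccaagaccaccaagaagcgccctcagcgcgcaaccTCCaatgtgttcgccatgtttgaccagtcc

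Across whole coding sequences, Myl12a and Myl12b were the closest pair of regulatory chains, identical at 498 of 516 aligned bases (96.5%). Myl9 matched Myl12a at 85.7% and Myl12b at 86.4% of aligned bases. Mylpf and Myl2 matched at 71.7%. Of the essential chains, Myl6 and Myl6b, neighbours on chromosome 10, matched at 81.1% of 449 aligned bases. Myl1, taken as its form of 150 codons, matched Myl4 at 78.9% of 446 aligned bases and Myl3 at 75.8% of 447. Gaps were left out, so bases of the longer Myl3, Myl4 and Myl6b without a partner were not counted.

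The fast sarcomeric pair held most of the light chain RNA. Mylpf, the regulatory chain of fast fibres (chr7:127208890-127214298, plus strand), had 10386 TPM in replicate 2 and 15133 TPM in replicate 1. Its mean of 12760 ± 3357 TPM (SD, n = 2) ranked 5 among 22015 nuclear protein-coding genes. Myl1, the essential chain of fast fibres (chr1:66924295-66945404, minus strand), had 7581 TPM in replicate 2 and 11703 TPM in replicate 1, with a mean of 9642 ± 2915 TPM (SD, n = 2) and rank 9. Both genes stood lower in replicate 2.

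The ratio of Mylpf counts was 0.669 (95% exact counting interval 0.665 to 0.673), from 166815 counts in replicate 2 and 219644 in replicate 1. For Myl1 the ratio was 0.630 (0.626 to 0.633), from 197680 counts in replicate 2 and 276488 in replicate 1. These intervals cover counting error only, and neither gene reached the 2-fold difference that a call required. The log2 ratios, -0.58 for Mylpf and -0.67 for Myl1, lay inside the central 95% of the 14965 genes tested, which ran from -0.96 to 1.48 around a median of 0.0046.

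**Figure D1:**
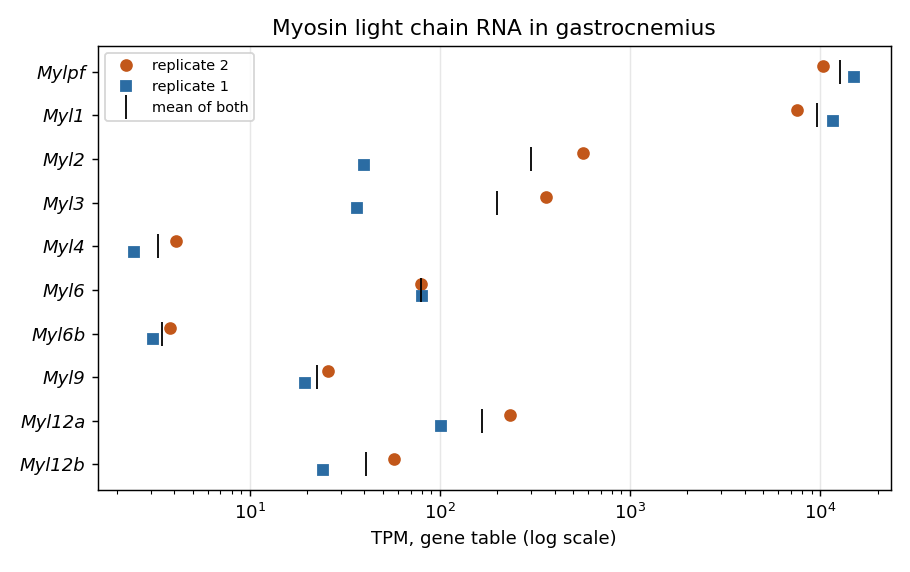
TPM of each light chain gene in the gene table, on a log axis, in replicate 2 (circles) and replicate 1 (squares), with the mean of both as a bar. Mylpf and Myl1 stand at 7581 TPM or more in each library, while Myl2 and Myl3 show the widest gaps, with replicate 2 to the right.

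The slow sarcomeric pair showed the widest differences among the members. Myl2, the regulatory chain of slow fibres and of the ventricle (chr5:122100951-122113472), had 564.0 TPM in replicate 2 and 40.02 TPM in replicate 1. Myl3, the essential chain of the same fibres (chr9:110741861-110769798), had 362.8 TPM in replicate 2 and 36.50 TPM in replicate 1. Both were high in replicate 2 and low in replicate 1, so their means, 302.0 ± 370.5 TPM for Myl2 and 199.6 ± 230.7 TPM for Myl3 (SD, n = 2), lie near neither library.

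Myl2 counts were 14.4-fold higher in replicate 2 (counting interval 13.3 to 15.7), from 10009 counts in replicate 2 and 611 in replicate 1. Myl3 counts were 9.58-fold higher in replicate 2 (8.97 to 10.2), from 10509 counts in replicate 2 and 966 in replicate 1. By a 2-sided exact binomial test with Benjamini-Hochberg adjustment over all genes tested, and a 2-fold threshold, 3 of the 10 members were called higher in replicate 2, namely Myl2, Myl3 and Myl12a. Of all genes tested, 4.46% were called in that direction. No member was called higher in replicate 1, where the background was 1.7%. The test compares these 2 libraries and says nothing of a condition.

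Myl2 made up 5.15% of the TPM of Mylpf and Myl2 together in replicate 2 and 0.264% in replicate 1. Myl3 made up 4.57% of the TPM of Myl1 and Myl3 in replicate 2 and 0.311% in replicate 1. In the second transcript quantification, made from the same reads, the regulatory slow share was 8.06% in replicate 2 and 0.419% in replicate 1, and the essential one was 4.22% in replicate 2 and 0.299% in replicate 1. A setting chosen after seeing the data kept only annotated complete coding transcripts. With it, the second quantification gave a regulatory share of 4.37% in replicate 2 and 0.209% in replicate 1. The essential share there was 3.60% in replicate 2 and 0.271% in replicate 1. The first transcript quantification gave a regulatory share of 5.57% in replicate 2 and 0.233% in replicate 1 with this setting. Among the adult heavy chains Myh1, Myh2, Myh4 and Myh7, the slow heavy chain Myh7 made up 2.30% of TPM in replicate 2 and 0.175% in replicate 1. In each library both light chain shares of the gene table lay above that of the heavy chain. Counts in place of TPM gave slow shares of 5.66% in replicate 2 and 0.277% in replicate 1 for the regulatory chains.

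**Figure D2:**
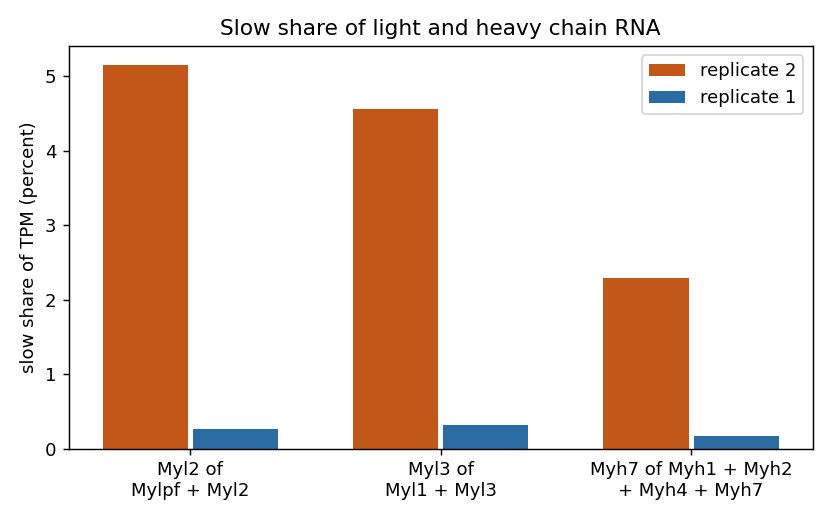
Slow gene as a percent of the TPM of its set, for the regulatory light chains, the essential light chains and the adult heavy chains, in replicate 2 (left bar of each pair) and replicate 1 (right bar). Replicate 2 stands at 5.15%, 4.57% and 2.30%, and replicate 1 lies under 1% in each set.

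The heart shares Myl2 and Myl3 with slow muscle, so heart markers are given beside them. Of the 7 cardiac markers, Nppa and Nppb, the natriuretic peptide genes, and Myl7, the atrial regulatory light chain, were at 0 in both libraries, and Tnni3, the cardiac troponin I, had 1 count in each. Myh6, the alpha heavy chain, had 73.22 TPM in replicate 2 and 5.88 TPM in replicate 1 and was called. So was Ryr2, the cardiac ryanodine receptor, with 100 counts in replicate 2 and 14 in replicate 1. Hcn4, a pacemaker channel, had 350 counts in replicate 2 and 249 in replicate 1 and was not called. The summed level of the 7 genes was 75.2 TPM in replicate 2 and 7.32 TPM in replicate 1.

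Myl4, the essential chain of embryonic muscle and the atrium (chr11:104550663-104595753), had the lowest mean TPM of the members, next to Myl6b. It had 4.09 TPM in replicate 2 and 2.46 TPM in replicate 1, from 112 counts in replicate 2 and 58 in replicate 1. The ratio was 1.70 (1.23 to 2.38), with an adjusted p of 0.0037 by the exact binomial test, and it was not called because it stayed under 2-fold. The embryonic heavy chain Myh3 was likewise low, with 6.69 TPM in replicate 2 and 3.01 TPM in replicate 1, and was called.

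The smooth muscle and non-muscle chains summed to 398.9 TPM in replicate 2 and 227.8 TPM in replicate 1. They held 2.07% of the TPM of the 10 members in replicate 2 and 0.839% in replicate 1. Their order by mean TPM was Myl12a, Myl6, Myl12b, Myl9 and Myl6b, and the same order held in each library of the gene table. In the second quantification Myl12b, with 16.7 TPM in replicate 2 and 12.3 TPM in replicate 1, stood below Myl9, with 30.4 TPM in replicate 2 and 26.5 TPM in replicate 1.

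Myl12a, a regulatory chain of non-muscle myosin II (chr17:70993656-71002878), had 233.0 TPM in replicate 2 and 101.0 TPM in replicate 1. It was 2.25-fold higher in replicate 2 (2.16 to 2.36) and was called, from 6770 counts in replicate 2 and 2645 in replicate 1. Its near-copy Myl12b, the next gene along (chr17:70973133-70990890), had 57.44 TPM in replicate 2 and 24.30 TPM in replicate 1. Its count ratio of 1.99 (1.75 to 2.27) fell just under the 2-fold threshold, so it was not called. Both genes stood higher in replicate 2.

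Myl6, the essential chain that smooth muscle and non-muscle cells share (chr10:128490860-128494145), had 79.03 TPM in replicate 2 and 80.01 TPM in replicate 1. Its mean was 79.52 ± 0.693 TPM (SD, n = 2), the smallest spread among the members of the gene table in proportion to its level. In the second quantification Myl6 had 175.2 TPM in replicate 2 and 190.3 TPM in replicate 1. The count ratio was 0.914 (0.854 to 0.977), with an adjusted p of 0.0265 by the exact binomial test. With libraries scaled by their spike-ins its log2 ratio changed sign, at 0.093 against -0.13, so no direction is given for Myl6.

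Myl9, the regulatory chain of smooth muscle (chr2:156775420-156781658), had 25.65 TPM in replicate 2 and 19.40 TPM in replicate 1. The ratio of 1.19 (1.07 to 1.32) had an adjusted p of 0.0045 by the exact binomial test and was not called. Myl6b, an essential chain related to Myl6 (chr10:128494157-128498685), had 3.80 TPM in replicate 2 and 3.09 TPM in replicate 1. Its ratio of 1.18 (0.893 to 1.57) had an adjusted p of 0.402 by the same exact test, from 122 counts in replicate 2 and 91 in replicate 1.

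Smooth muscle and pericyte markers are given beside these genes. The 10 markers summed to 204.2 TPM in replicate 2 and 157.9 TPM in replicate 1, and 2 of them, Cnn1 and Kcnj8, were called higher in replicate 2. Of the 3 most abundant, Rgs5 had 79.21 TPM in replicate 2 and 59.62 TPM in replicate 1, Smtn had 37.81 TPM in replicate 2 and 41.01 TPM in replicate 1, and Acta2 had 34.63 TPM in replicate 2 and 24.77 TPM in replicate 1. The 8 endothelial markers summed to 66.0 TPM in replicate 2 and 46.1 TPM in replicate 1, with Kdr and Cldn5 called higher in replicate 2. The most abundant of these, Cdh5, had 16.96 TPM in replicate 2 and 13.19 TPM in replicate 1. The 5 Schwann cell markers summed to 28.5 TPM in replicate 2 and 19.9 TPM in replicate 1, with a median log2 ratio of 0.83, and Sox10 and Prx were called higher in replicate 2. The 5 adipocyte markers summed to 34.9 TPM in replicate 2 and 21.4 TPM in replicate 1, with a median of 0.73. Of these, Adipoq and Lep were called higher in replicate 2 and Retn higher in replicate 1. None of the fibroblast, tendon, macrophage, satellite cell or erythrocyte markers tested was called. Their median log2 ratios were 0.14, 0.27, 0.24, 0.36 and 0.21, in that order. The background over all genes tested was 4.46% called higher in replicate 2 and 1.7% higher in replicate 1. Whether these cell types account for any part of the Myl12a difference was not tested.

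**Figure D3:**
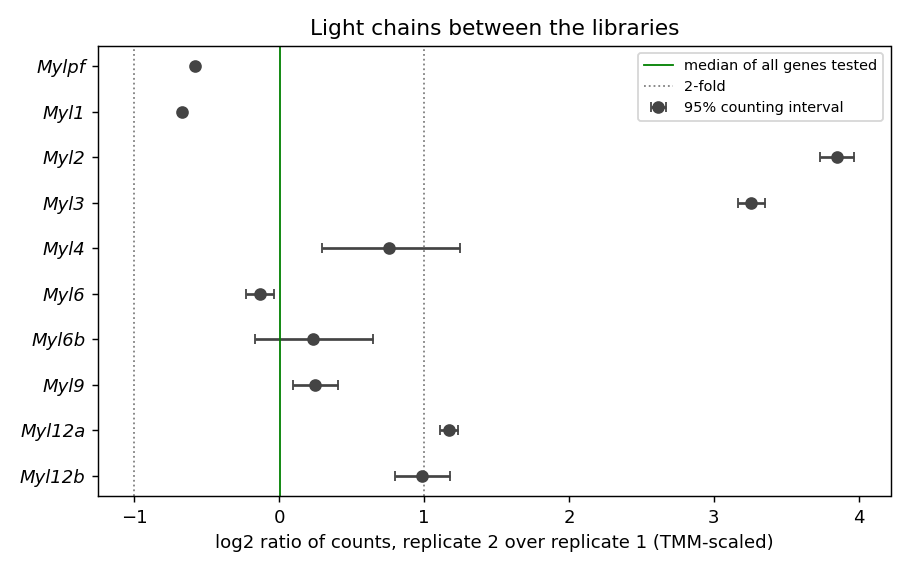
log2 ratio of TMM-scaled counts, replicate 2 over replicate 1, for each member, with the 95% counting interval as a bar. Dotted lines mark 2-fold and the solid line marks the median of all genes tested. Myl2 and Myl3 stand above 3, Myl12a above 1, Myl12b at 0.99 and the other members within 2-fold.

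At a 1.5-fold threshold 5 members were called higher in replicate 2, with Myl4 and Myl12b added, against 7.9% of all genes tested, and Myl1 was called higher in replicate 1, against 3.85%. At 4-fold Myl2 and Myl3 were called, against 1.45%. Scaling by spike-ins or taking TPM as deposited added Myl12b to the 3 calls at 2-fold, where 7.07% of all genes were called higher in replicate 2 with spike-ins and 2.38% with TPM.

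The members' levels were also set against each other and against the heavy chains they bind. The sarcomeric essential chains (Myl1, Myl3 and Myl4) summed to 7948 TPM in replicate 2 and 11742 TPM in replicate 1. The sarcomeric regulatory chains (Mylpf and Myl2) summed to 10950 TPM in replicate 2 and 15173 TPM in replicate 1. The essential to regulatory ratio was 0.726 in replicate 2 and 0.774 in replicate 1. In the gene table this ratio was nearly the same in both libraries. Mylpf and Myl1, which held most of each sum, both stood lower in replicate 2, and Myl2 and Myl3 made up a small part. The ratio depended on the quantification, as given further on.

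Among the smooth and non-muscle chains the same ratio was 0.262 in replicate 2 and 0.575 in replicate 1. Its denominator holds Myl12a and Myl12b, which stood higher in replicate 2. The 10 sarcomeric heavy chain genes summed to 13762 TPM in replicate 2 and 16951 TPM in replicate 1. The sarcomeric regulatory chains stood at 0.796 of that sum in replicate 2 and 0.895 in replicate 1. The essential chains stood at 0.578 in replicate 2 and 0.693 in replicate 1. These are ratios of RNA levels and say nothing of protein. Of the TPM of all nuclear protein-coding genes, the 10 light chain genes took 4.41% in replicate 2 and 5.92% in replicate 1. Of the counts, which are not divided by length, they took 1.21% in replicate 2 and 1.59% in replicate 1.

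The heavy chain genes showed both directions. Of 9 sarcomeric heavy chain genes tested, 6 were called higher in replicate 2 and 0 higher in replicate 1, with a median log2 ratio of 1.14. The shares over all genes tested were 4.46% higher in replicate 2 and 1.7% higher in replicate 1. Myh4, the heavy chain of the fastest fibres, had 11005 TPM in replicate 2 and 15964 TPM in replicate 1, a log2 ratio of -0.59 next to the -0.58 of Mylpf. Myh2 (type IIa) had 1081 TPM in replicate 2 and 278.7 TPM in replicate 1, and Myh1 (type IIx) had 1171 TPM in replicate 2 and 510.5 TPM in replicate 1. Myh7, the slow form, had 311.6 TPM in replicate 2 and 29.39 TPM in replicate 1. Myh6, Myh3 and Myh7b were the other sarcomeric calls. The light chain family has no separate genes for the IIa, IIx and IIb fibre types, and Mylpf and Myl1 stood lower in replicate 2 while Myh1 and Myh2 stood higher.

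Of the 4 smooth and non-muscle heavy chain genes, 1 was called, higher in replicate 2, against 4.46% of all genes tested. Myh10, the non-muscle IIB heavy chain, had 14.79 TPM in replicate 2 and 1.95 TPM in replicate 1. Myh9, the IIA form, had 26.56 TPM in replicate 2 and 22.06 TPM in replicate 1 and was not called. Neither was Myh14, the IIC form, with 19.06 TPM in replicate 2 and 13.92 TPM in replicate 1, nor Myh11, the smooth muscle form.

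Kinases and a phosphatase act on the regulatory chains. None of 12 light chain kinase genes was called in either direction by the exact binomial test and 2-fold threshold, against 6.17% of all genes tested, and the median log2 ratio was 0.031. The most abundant were Mylk4, with 455.5 TPM in replicate 2 and 522.6 TPM in replicate 1, and Mylk2, the skeletal muscle light chain kinase, with 282.7 TPM in replicate 2 and 305.5 TPM in replicate 1.

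None of 7 light chain phosphatase genes was called either. Counts of 0 in lists of this size lie near the background. Ppp1cb, the catalytic subunit, had 212.5 TPM in replicate 2 and 190.7 TPM in replicate 1. Ppp1r12b, the striated muscle targeting subunit, had 72.30 TPM in replicate 2 and 57.58 TPM in replicate 1. Ppp1r14b, which codes for an inhibitor of this phosphatase, had 61.03 TPM in replicate 2 and 88.09 TPM in replicate 1, a log2 ratio of -0.55.

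Of 5 chaperone genes for myosin none was called, with a median of 0.075. Among them Hspa8, a general chaperone, had 634.0 TPM in replicate 2 and 609.9 TPM in replicate 1, and Smyd1, which helps build sarcomeres, had 129.7 TPM in replicate 2 and 176.8 TPM in replicate 1. Unc45b, a chaperone of muscle myosin, had 78.22 TPM in replicate 2 and 88.74 TPM in replicate 1. At this depth a ratio far under 2-fold can pass the p threshold alone: Mylk2, with a log2 ratio of -0.16, had an adjusted p of 2.70e-39 by the exact binomial test.

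Myl1 makes 2 main proteins from 2 start sites, the longer MLC1F from the distal start and the shorter MLC3F from a start inside the gene. Their first coding bases are shown because they carry the whole difference between the forms. Capitals mark the coding bases before the first exon that the forms share, and lower case marks the first shared bases.
Myl1-201 (MLC1F): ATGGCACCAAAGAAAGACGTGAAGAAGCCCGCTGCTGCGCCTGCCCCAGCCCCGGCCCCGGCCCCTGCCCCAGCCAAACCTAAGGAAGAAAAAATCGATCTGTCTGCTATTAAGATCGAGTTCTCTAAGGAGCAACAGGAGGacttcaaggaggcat
Myl1-202 (MLC3F): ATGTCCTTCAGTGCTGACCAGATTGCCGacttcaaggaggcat

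The distal form spends 142 coding bases before the shared exons and the proximal form 28, so that the proteins run to 188 codons and 150 codons. The transcripts start 9789 bases apart on chromosome 1, at 66945143 for Myl1-201 and 66935354 for Myl1-202. In the first transcript quantification, Myl1-202 held 73.8% of the gene's TPM in replicate 2 and 75.2% in replicate 1. Myl1-201 held 22.6% in replicate 2 and 20.8% in replicate 1. In TPM, Myl1-202 had 5592 in replicate 2 and 8798 in replicate 1, and Myl1-201 had 1712 in replicate 2 and 2437 in replicate 1.

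Grouped by start, 3 transcripts from the distal start held 22.8% of Myl1 TPM in replicate 2 and 21.2% in replicate 1, a mean of 22.0 ± 1.15% (SD, n = 2). The 4 transcripts of the proximal start held 75.2% in replicate 2 and 77.0% in replicate 1. The split was nearly the same in both libraries although the gene's level was not.

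The second transcript quantification, made from the same reads, gave the distal start 40.2% in replicate 2 and 40.3% in replicate 1. There Myl1-207, which starts near Myl1-202 but codes for 92 codons, held 6384 TPM in replicate 2 and 9022 TPM in replicate 1, against 6.00 TPM in replicate 2 and 4.62 TPM in replicate 1 in the first quantification. Myl1-206, annotated without its 3′ end, held 3517 TPM in replicate 2 and 6381 TPM in replicate 1, against 13.9 TPM in replicate 2 and 43.2 TPM in replicate 1 in the first. Over complete coding transcripts alone, a setting chosen after seeing the data, the distal share was 23.4% in replicate 2 and 21.7% in replicate 1 in the first quantification. In the second it was 20.4% in replicate 2 and 18.3% in replicate 1. The proximal start held the larger part of Myl1 TPM under each of these settings.

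**Figure D4:**
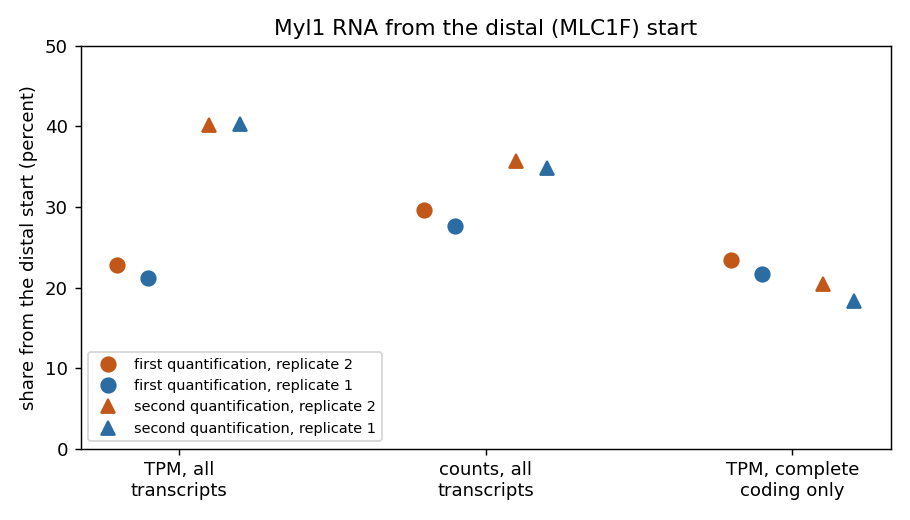
Share of Myl1 RNA from the distal start, in percent, by TPM of all transcripts, by counts of all transcripts and by TPM of complete coding transcripts, for the first (circles) and second (triangles) quantification, with replicate 2 left of replicate 1. The libraries lie within 3 percentage points of each other in each setting, while the quantifications differ most for TPM of all transcripts.

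Mylpf also had more than 1 annotated start. Mylpf-206 starts 2709 bases upstream of Mylpf-201, and its coding sequence has 149 codons, which match the last 149 of the 169 codons of Mylpf-201. It lacks the first 20, and with them the serine codon shown above. In the first quantification Mylpf-206 held 42.2% of the gene's TPM in replicate 2 and 41.7% in replicate 1, and Mylpf-201 held 26.1% in replicate 2 and 25.5% in replicate 1. Mylpf-203, an annotated retained intron of 285 nt, held 29.7% in replicate 2 and 31.1% in replicate 1. In counts the Mylpf-203 share was 11.9% in replicate 2 and 12.6% in replicate 1, since TPM divides by length.

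In the second quantification Mylpf-203 was at 0 in both libraries. Mylpf-205, annotated without its 3′ end, took 33.8% in replicate 2 and 32.0% in replicate 1. Over complete coding transcripts the 149-codon form held 61.7% in replicate 2 and 62.1% in replicate 1 in the first quantification. In the second it held 67.1% in replicate 2 and 68.2% in replicate 1. Reads from exons that transcripts share are divided between them, so these shares are estimates of each quantification and not counts of observed first exons.

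Myl6 has forms that differ only at the end. Myl6-206 includes an exon of 45 bases (chr10:128491720-128491764, minus strand) that Myl6-201 skips. Both code for 151 codons, and the last 9 differ at 14 bases, shown in capitals after 5 shared codons.
Myl6-206: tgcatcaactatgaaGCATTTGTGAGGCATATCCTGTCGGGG
Myl6-201: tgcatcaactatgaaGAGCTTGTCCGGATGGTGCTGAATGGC

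In the first quantification Myl6-206 held 40.93 TPM in replicate 2 and 35.26 TPM in replicate 1, and Myl6-201 held 30.73 TPM in replicate 2 and 34.08 TPM in replicate 1. In the second, Myl6-201 was at 0 in both libraries. Myl6-205, a form of 139 codons at 0 in the first, had 62.50 TPM in replicate 2 and 68.55 TPM in replicate 1. Myl6-206 had 51.06 TPM in replicate 2 and 44.61 TPM in replicate 1 there. Its share of the gene's TPM was 51.8% in replicate 2 and 44.1% in replicate 1 in the first quantification, and 29.1% in replicate 2 and 23.4% in replicate 1 in the second.

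The other members were simpler by coding form. All 6 complete coding transcripts of Myl12a code for the same 172 codons, so they do not differ in coding sequence. The division of TPM among them was not resolved. In the first quantification Myl12a-210 held 0.0773% of the gene's TPM in replicate 2 and 50.5% in replicate 1, and Myl12a-208 held 63.3% in replicate 2 and 37.3% in replicate 1. The deposited posterior SD of the Myl12a-210 count was 592.5 on 5.08 counts in replicate 2 and 408.2 on 1300 counts in replicate 1. In the second quantification Myl12a-210 held 5.88% in replicate 2 and 9.81% in replicate 1, and Myl12a-201 held most, with 51.2% in replicate 2 and 48.7% in replicate 1, and Myl12a-208 was at 0. Myl3-201, of 204 codons, held 99.3% of Myl3 TPM in replicate 2 and 99.8% in replicate 1 in the first quantification. Its share in the second was 63.5% in replicate 2 and 59.3% in replicate 1. There Myl3-205, an incomplete coding transcript, held 35.85% in replicate 2 and 33.59% in replicate 1.

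Myl2-201, of 166 codons, held 73.7% of Myl2 TPM in replicate 2 and 59.3% in replicate 1 in the first quantification. Myl2-210, an annotated non-coding transcript of 467 nt, held 25.4% in replicate 2 and 39.9% in replicate 1 there. The second quantification gave Myl2-201 only 34.2% in replicate 2 and 33.6% in replicate 1. It gave Myl2-208, a non-coding transcript, 21.3% in replicate 2 and 19.0% in replicate 1. Myl2-209, an incomplete coding transcript, had 23.5% in replicate 2 and 20.2% in replicate 1 there. Myl9-201, of 172 codons, held 87.3% of Myl9 TPM in replicate 2 and 95.8% in replicate 1 in the first quantification. Myl9-203, a non-coding transcript, held 12.7% in replicate 2 and 4.23% in replicate 1 there. Myl9-201 held 100% in both libraries in the second. Myl6b-201, of 207 codons, held 99.2% of Myl6b TPM in replicate 2 and 97.7% in replicate 1 in the first quantification. The Myl4 split differed between libraries and quantifications. Myl4-203 held 27.6% in replicate 2 and 0% in replicate 1 in the first quantification, and 75.5% in replicate 2 and 95.8% in replicate 1 in the second.

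The level of Myl12b rested mostly on 1 transcript. Myl12b-202, an annotated retained intron of 369 nt, held 48.44 TPM in replicate 2 and 18.53 TPM in replicate 1, which was 84.3% of the gene in replicate 2 and 76.2% in replicate 1. It was at 0 in the second quantification. Its complete coding transcripts summed to 8.84 TPM in replicate 2 and 5.69 TPM in replicate 1 in the first quantification, and to 16.6 TPM in replicate 2 and 12.3 TPM in replicate 1 in the second. On the second scale Myl12b therefore lay at 0.291 of its first level in replicate 2 and 0.505 in replicate 1, while the median protein-coding gene lay at 1.31 in replicate 2 and 1.40 in replicate 1. Only 0.703% of 10390 protein-coding genes had a ratio under 0.5 in replicate 2.

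**Figure D5:**
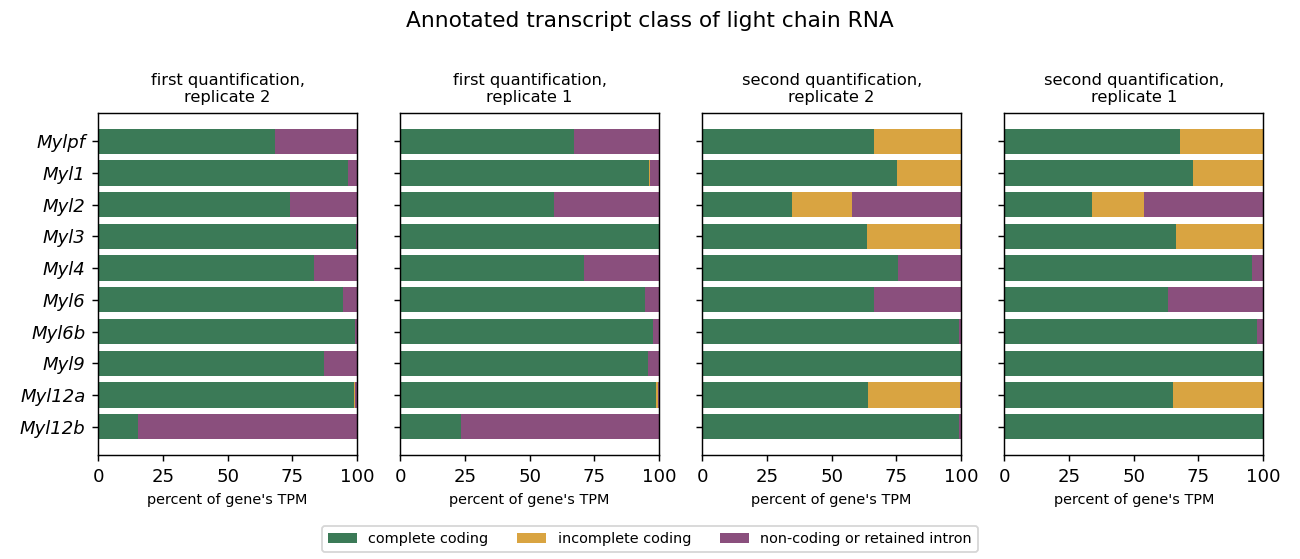
Share of each member's TPM in annotated complete coding, incomplete coding and non-coding or retained intron transcripts, in percent, for each quantification, with replicate 2 left of replicate 1. The non-coding or retained intron shares of Mylpf and Myl12b are large in the first quantification and near 0 in the second, while those of Myl2 (42.0% in replicate 2 and 45.9% in replicate 1) and Myl6 (33.7% in replicate 2 and 36.8% in replicate 1) are larger in the second.

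The other 9 members were higher in the second quantification, by ratios of 1.19 (Myl9) to 2.78 (Myl2) in replicate 2 and 1.37 (Myl9) to 2.83 (Myl2) in replicate 1. The counts moved less: for Mylpf the second stood at 0.930 of the first in replicate 2 and 0.931 in replicate 1. The essential to regulatory ratio was 0.763 in replicate 2 and 0.880 in replicate 1 in the second quantification, and 1.02 in replicate 2 and 1.11 in replicate 1 over complete coding transcripts in the first. Mylpf stood above Myl1 in TPM with all transcripts. With complete coding transcripts in the first quantification Mylpf had 7091 TPM in replicate 2 and 10158 TPM in replicate 1, against 7317 TPM in replicate 2 and 11247 TPM in replicate 1 for Myl1. Over complete coding transcripts of the second quantification Mylpf again stood above Myl1, with 11827 TPM in replicate 2 and 18287 TPM in replicate 1, against 10658 TPM in replicate 2 and 17319 TPM in replicate 1 for Myl1.

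Sequence shared exactly with other genes was found for Myl12b, Myl12a, Myl6 and Myl1. It was searched in annotated complete coding transcripts and not in reads, so transcripts such as Myl12b-202 were left out. Of all 100-base windows in complete coding transcripts, 29.0% of those of Myl12b and 19.4% of those of Myl12a also occurred in another gene's transcripts. For Myl12b these included a second gene entry of the same symbol (chr17:70974119-71002208), which overlaps both loci. That entry had 10.36 TPM in replicate 2 and 10.40 TPM in replicate 1, and it was at 0 in the second quantification. The posterior SD that stands beside each count was 2.19% of the Myl12b count in replicate 2 and 5.38% in replicate 1. For Myl6, 7.06% of windows were shared with pseudogenes such as Gm8894, and for Myl1 6.70% with Mylf-ps. Mylpf, Myl2, Myl3, Myl4, Myl6b and Myl9 shared none.

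The RefSeq promoter table (GRCm38.p6) matched all 10 members with 12 windows, each from 250 bases before to 50 after a start, and 3 are shown for the genes that carry the contrast between fast and slow chains. They are Mylpf (chr7:127211358-127211657, plus strand), Myl1 (chr1:66945007-66945306, minus strand) and Myl3 (chr9:110763428-110763727, plus strand), and their starts lie 0, 87 and 32 bases from the first base of an annotated transcript. Each is given 5′ to 3′ on the gene's strand from the C57BL/6J reference, with E-boxes in capitals. The CAST/EiJ allele was not analysed here.
Mylpf promoter: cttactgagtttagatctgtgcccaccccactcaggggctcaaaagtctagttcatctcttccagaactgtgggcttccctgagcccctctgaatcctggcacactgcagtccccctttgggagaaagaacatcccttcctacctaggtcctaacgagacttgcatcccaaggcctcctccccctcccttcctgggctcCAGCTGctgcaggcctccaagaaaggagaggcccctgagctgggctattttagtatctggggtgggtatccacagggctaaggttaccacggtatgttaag
Myl1 distal promoter: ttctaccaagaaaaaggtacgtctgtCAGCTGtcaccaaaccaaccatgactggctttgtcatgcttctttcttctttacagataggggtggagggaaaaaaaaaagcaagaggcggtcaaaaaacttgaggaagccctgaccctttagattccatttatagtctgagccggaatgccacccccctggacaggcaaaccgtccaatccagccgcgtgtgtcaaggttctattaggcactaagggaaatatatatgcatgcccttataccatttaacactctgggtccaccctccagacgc
Myl3 promoter: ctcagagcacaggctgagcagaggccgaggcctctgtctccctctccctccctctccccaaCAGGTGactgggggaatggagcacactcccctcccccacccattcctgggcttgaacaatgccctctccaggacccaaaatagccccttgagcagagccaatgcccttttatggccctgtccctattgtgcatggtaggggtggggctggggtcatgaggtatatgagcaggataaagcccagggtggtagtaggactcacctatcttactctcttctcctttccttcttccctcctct

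Myogenic factors such as MyoD bind the E-box, CANNTG, which was searched on both strands, as were the other motifs. Each of these windows held 1, at -51 from the start in Mylpf, -224 in Myl1 and -189 in Myl3. Of all 32851 promoter windows of that length 72.3% held at least 1, so most windows share this match. The TATA box, TATAAA, was matched in the Myl1 window and in 1 of 2 Myl2 windows, against 13.6% of all windows on either strand. Both matches were TTTATA, its form on the opposite strand, so neither window held TATAAA on the gene's own strand. The CArG box, to which serum response factor binds, was found in the windows of Myl3 and Myl9 and in 1 of 2 Myl6 windows, against 1.63% of all. That Myl6 window lies nearest the start of Myl6-213, which held 0% of Myl6 TPM in replicate 2 and 0.075% in replicate 1 in the first quantification. The Myl6 window near the start of Myl6-201 held no CArG box. No member window held the MEF2 box, against 1.86% of all. No match overlapped an E-box in these windows.

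The Mylpf window is set on the start of Mylpf-201 and not of Mylpf-206. The Myl1 window covers the distal start, 87 bases from that of Myl1-201, and the table held none for the proximal start that held most of the gene's TPM. Both Myl2 windows lay upstream of the start of Myl2-201, by 8227 and 7762 bases, and they were not printed. The Myl4 window is set on the start of Myl4-201, which held 0% of Myl4 TPM in both libraries of the first quantification. The Myl12a window lies nearest the start of Myl12a-206, which held 2.3% in replicate 2 and 2.6% in replicate 1 there. The windows of Myl4 and Myl12a therefore say nothing of motifs at the starts that held most of these genes' TPM.

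The genes whose log2 ratio lay closest to that of a sarcomeric member are named as a description of 1 ratio over 2 libraries, among 4447 protein-coding genes with a mean of at least 10 TPM. For Myl2, at 3.85, they were Myom3 (3.80), Tnni1 (3.80) and Ankrd2 (3.70). For Myl3, at 3.26, they were Myh7 (3.31), Myoz2 (3.16) and Tnnc1 (3.39). Tnni1 and Tnnc1 are slow troponin subunits. For Mylpf they were Jph2, Wnk2 and Mrln, for Myl1 Acvr1b, Col3a1 and Arfgap2, and for Myl4 Lims1, Twf2 and Qk, each within 0.01 of the member.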

How the data were processed

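Deposited tables of 2 gastrocnemius total RNA libraries, 1 group, were used. The labels give assembly mm10 and the submitters' file lists give GENCODE M21, with aligner and counting program not given in the sources used here. Expected counts, TPM and FPKM stand in the gene table and in the first transcript table as deposited by the authors, reads with several matches being divided. Isoform percent was also deposited there by the authors, per the file headers. The second transcript table holds estimated counts and TPM that the authors derived from the same reads. FPKM and the deposited percent were not used further.

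Rounding made the expected counts whole. For each gene with a mean count of at least 10 (14965 genes), a 2-sided exact binomial test (scipy 1.17.1) set replicate 2 against the sum of both libraries. It used TMM library sizes (edgeR 4.0.16, R 4.3.3) and Benjamini-Hochberg adjustment. A call needed an adjusted p below 0.05 and a 2-fold difference. With 1 group, edgeR's quasi-likelihood test has no contrast to fit. The binomial test was checked on simulated data. Log2 ratios use counts + 0.5, and ratio intervals are exact 95% binomial intervals for counting error only. The p-values measure the difference between these libraries, which may be technical. Alternatives were DESeq2 1.42.0 size factors, spike-in totals, deposited TPM, the second table, and other filters, folds and added counts.

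For Myl12b, whose symbol has 2 gene IDs, the one with the higher mean TPM was used. A transcript was taken as complete coding if annotated protein-coding without a missing end. Starts within 500 bases were grouped. The text names all members, called genes and the 3 most abundant of the lists it describes, the 3 nearest genes by ratio, and transcripts with at least 1% of a gene's TPM. Members and lists were chosen with earlier results of these data known. Some genes and lists that this rule takes are left out of the text.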

Additional observations from a re-analysis of the deposited data

How the results depend on the processing

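Leaving aside the count filters, which cannot change a gene's own ratio, member log2 ratios kept their direction in 59 of 60 recomputed values. The exception was Myl6 with spike-in totals (0.093), a scaling that shifts every log2 ratio by 0.22. Values from DESeq2 size factors and added counts could hardly change direction, so the 59 say little of those settings. The smallest ratio, that of Myl6, moved from -0.1304 to -0.1351 with DESeq2 factors and to -0.1305 with 5 added counts. Myl12b passed the threshold with spike-in totals (1.21) and deposited TPM (1.22). A 1.5-fold threshold called 6 members against 3, and 39 genes of the lists against 25. A 4-fold threshold called 13 list genes. Of all genes tested, 11.7% were called in either direction at 1.5-fold, 6.17% at 2-fold and 1.81% at 4-fold. The mean essential to regulatory ratio was 0.750, and 0.822 in the second table, 1.22 from counts and 1.07 over complete coding transcripts. The mean distal share of Myl1 was 22.0%, and 40.2% in the second table, 28.6% from counts, and 19.3% over complete coding transcripts of the second table. The cause was not tested.

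Leaving out 1 replicate returns only the other library's own value, so the ranges that follow restate the 2 libraries and add no test. The slow share was 0.264% to 5.15% (regulatory) and 0.311% to 4.57% (essential). The distal share of Myl1 was 21.2% to 22.8%, the essential to regulatory ratio 0.726 to 0.774, and the smooth and non-muscle ratio 0.262 to 0.575. The non-muscle share was 0.839% to 2.07%. No paired analysis was possible because the series holds 1 group. The 2 libraries limit every statement to the difference between them.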

Other observations

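Among other myosin light chain genes, Myl10, annotated as a regulatory light chain gene, had 2.94 TPM in replicate 2 and 0.0800 TPM in replicate 1, from 56 counts in replicate 2 and 1 in replicate 1, and was called higher in replicate 2. Of the 3 genes tested in that list it was the only call, against 4.46% of all genes tested. Mylip, which codes for a ubiquitin ligase that binds regulatory light chains, had 4.76 TPM in replicate 2 and 3.40 TPM in replicate 1 and was not called.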
